A study of Homo sapiens with 9 samples.

Results

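The 57 genes described here copy DNA: the origin recognition complex, the licensing and helicase factors, the replicative polymerases and their clamp, the enzymes that make deoxynucleotides, and factors that guard forks and new chromatin. They were taken from a list of symbols that was chosen with earlier results of these data known. A gene was counted where a probe set carried that symbol and no other. All 57 were measured, each by 1 probe set, among 22109 genes on the arrays. RNA came from MDA-MB-231, a human triple-negative breast cancer cell line established from pleural fluid. One group of 3 samples was exposed for 20 h to YM-155 (sepantronium bromide, a small molecule known as a survivin suppressant) at 14.6 ng/ml, which the submitters give as the LC50. Another group of 3 was exposed for 8 h to increments adding up to 83 ng/ml, and the 3 control samples had no treatment. The drug was dissolved in DMSO and diluted in buffer, and the labels name no vehicle or harvest time for the controls. Dose and time differed together between the treated groups, so neither can be told apart from the other. Values are log2 RMA summaries, so a difference of 1 is 2-fold, and they compare a gene with itself across arrays and not 1 gene with another. The samples are called triplicates with no word on separate cultures, so p-values here rest on a spread among samples that could be technical.

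A cell licenses its origins before S phase, when ORC, CDC6 and CDT1 load the MCM helicase onto DNA. The kinase CDC7 with its partner DBF4, together with MCM10, CDC45 and GINS, then turns the helicase on, and polymerases alpha, epsilon and delta copy the strands with the clamp PCNA, its loader RFC and the single-strand binder RPA. Many of these genes are known targets of E2F transcription factors, which the RB proteins hold back in resting cells.

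Transcripts of the replication genes were lower at 20 h almost throughout, and lower to a smaller degree at 8 h. At 20 h against control, 53 of 57 fell at a limma adjusted p under 0.05 and 0 rose (0 at an unadjusted p under 0.05), where 17.2% of all genes tested were called lower (13.1% higher, 30.3% in all). Of these, 39 fell at least 2-fold, against 3.91% of all genes, and the median log2 change was -1.30 beside 0.028 over all genes. At 8 h against control, 32 fell and 1 rose, DBF4, where 6.28% of all genes were called lower and 5.93% higher (12.2% in all). The median at 8 h was -0.39 beside -0.0030 over all genes, and 2 members, PRIM1 and POLE2, fell at least 2-fold, as did 0.285% of all genes. All 32 that fell at 8 h also fell at 20 h, a further 21 fell at 20 h alone by the test, and 3 were called at neither time (POLE3, POLE4 and POLD2). With 53 of 57 lower at 20 h, most of the 32 had to be among them. The same overlap was not counted over all genes, so it cannot be set against a share. Of the 33 calls at 8 h, 20 held under every alternative tried. The 13 that did not were CLSPN, DBF4, MCM10, MCM4, ORC5, POLA1, POLD3, RFC1, RFC2, RFC5, RPA3, RRM1 and TIMELESS. The comparisons with control share the same 3 control arrays. Every 20 h array lay below every control array for 53 members (21.4% of all genes did so), and every 8 h array lay below every control array for 44 (14.5% of all genes). In RNA from whole cultures, fewer cells expressing these genes and less of their RNA per cell cannot be told apart.

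**Figure D1:**
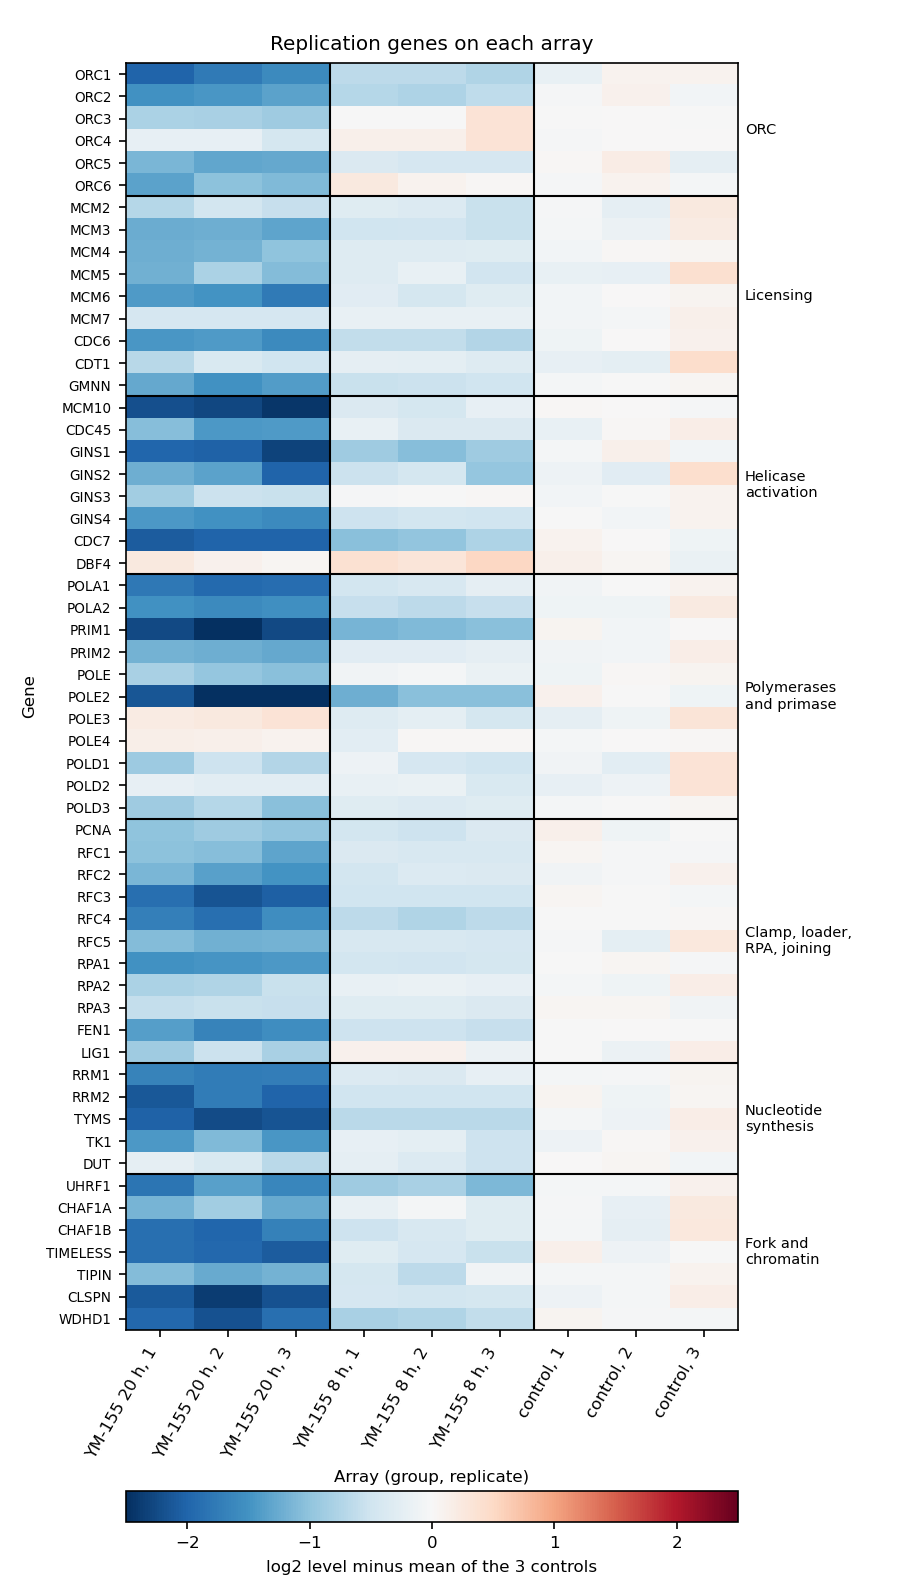
Level of each of the 57 replication genes (rows, by role) on each of the 9 arrays (columns), as the log2 level minus the mean of the 3 controls. Blue is lower and red is higher: the 20 h arrays are blue for 53 genes that fell, the 8 h arrays are paler, and DBF4, POLE3 and POLE4 are the rows that are red at 20 h.

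The median level of the 57 genes was 5.74, 5.82 and 5.77 on the 20 h arrays, 6.73, 6.70 and 6.65 on the 8 h arrays and 6.99, 7.01 and 7.23 on the control arrays, in replicate order. The 3 groups did not overlap, while the median of all genes lay between 3.83 and 3.92 on every array. RMA brings the arrays to a like distribution, so that median cannot show whether total RNA changed. Control replicate 3 stood apart: it was above the mean of controls 1 and 2 for 39 of the 57, by a median of 0.11, against 0.011 over all genes. Without it, 51 members fell and 1 rose at 20 h, and 25 fell at 8 h, where DBF4 was no longer called. The member that then rose at 20 h was POLE3, and all 25 called at 8 h were among the 32. Leaving out each other array in turn gave 50 to 52 members lower at 20 h and 20 to 33 lower at 8 h, and the lowest of these, 20, was without 8 h replicate 2. Of 7 markers of this line, 2 rose and 1 fell at 20 h (EGFR and ANXA1 higher, CAV1 lower), and 3 rose and 1 fell at 8 h (CD44 also higher). VIM, which was not called, averaged 8.49 at 20 h, 8.47 at 8 h and 8.57 in controls, and the summed level of the list was 12.66 to 12.67 at 20 h, 12.58 to 12.64 at 8 h and 12.48 to 12.67 in controls. Of the luminal markers, ESR1 and PGR stayed at 3.07 or less in every group mean, and FOXA1 averaged 2.31 to 2.66. The others read higher: GATA3 averaged 4.07 to 4.47, CDH1 4.40 to 4.86, KRT8 4.82 to 5.51 and KRT18 5.17 to 5.35. Of 4 leukocyte markers measured, PTPRC and CD3E averaged 1.95 or less in every group. The other 2, CD14 and ITGAM, were called higher at 20 h, by 0.77 and 0.45. Summed levels of the list were 4.52 to 5.06 at 20 h, 4.44 to 4.52 at 8 h and 4.33 to 4.45 in controls. Of 7 luminal markers, 0 were called at 20 h and 1 rose at 8 h, CDH1 by 0.45. Their summed levels were 7.16 to 7.25 at 20 h, 6.98 to 7.10 at 8 h and 6.96 to 7.29 in controls. Of 7 reference genes, 3 fell at 20 h, HPRT1 by 0.99, PPIA by 0.64 and GUSB by 0.29. At 8 h 1 fell, ACTB by 0.58. Summed levels of the 7 were 10.4 to 10.7 at 20 h, 10.7 at 8 h (both ends) and 10.7 to 10.8 in controls. The part of these markers in the results was not tested.

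The promoters of 5 members that fell at both times are shown because each holds a short E2F core, and that of DBF4, which rose at 8 h, because it holds none; they were chosen after their values were seen. Sequences are from RefSeq (GRCh38.p14), each running from 140 bases before to 10 bases after a transcription start, 5′ to 3′ on the gene's strand, with capitals on a match to TTCCCGC or TTGGCGC on either strand. PRIM1 lies at chr12:56752314-56752463 (minus strand), POLE2 at chr14:49688205-49688354 (minus), CDC7 at chr1:91500711-91500860 (plus, 1 of 2 starts listed), TYMS at chr18:657513-657662 (plus), CLSPN at chr1:35769969-35770118 (minus) and DBF4 at chr7:87876353-87876502 (plus).
PRIM1: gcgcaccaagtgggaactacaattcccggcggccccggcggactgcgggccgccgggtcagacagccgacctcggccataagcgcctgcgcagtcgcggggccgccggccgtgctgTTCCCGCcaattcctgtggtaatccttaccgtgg
POLE2: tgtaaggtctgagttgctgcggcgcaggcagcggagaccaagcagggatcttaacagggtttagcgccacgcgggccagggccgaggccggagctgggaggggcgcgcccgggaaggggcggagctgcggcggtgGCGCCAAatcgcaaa
CDC7: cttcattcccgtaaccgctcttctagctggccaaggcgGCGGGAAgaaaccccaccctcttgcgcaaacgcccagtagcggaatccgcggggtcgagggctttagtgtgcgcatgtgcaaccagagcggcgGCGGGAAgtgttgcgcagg
TYMS: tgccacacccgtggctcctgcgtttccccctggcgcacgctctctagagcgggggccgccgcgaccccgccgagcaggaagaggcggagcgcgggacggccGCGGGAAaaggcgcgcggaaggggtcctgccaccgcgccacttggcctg
CLSPN: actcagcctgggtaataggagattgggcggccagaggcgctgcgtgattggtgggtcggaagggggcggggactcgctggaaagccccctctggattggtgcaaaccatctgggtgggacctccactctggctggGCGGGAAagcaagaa
DBF4: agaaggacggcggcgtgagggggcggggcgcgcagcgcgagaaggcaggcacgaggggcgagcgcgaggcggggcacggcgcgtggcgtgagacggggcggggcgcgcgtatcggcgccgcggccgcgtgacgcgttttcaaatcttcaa
The first base of the core lies at -24 in PRIM1, -5 in POLE2, -102 and -9 in CDC7, -39 in TYMS and -5 in CLSPN, counted back from the start. DBF4 has no core in its window.

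Windows of 300 bases (250 before to 50 after a start) were in the table for 51 of the 57 genes, and MCM4, MCM5, RPA2, RPA3, POLD3 and GINS4 were not matched. An E2F core was in 36 of these 51 genes (70.6%), against 14.4% of the 15336 tested genes with a window. Counted by window, since a gene can have several starts, it was in 38 of 71 member windows (53.5%) and in 9.23% of all 35116. Of the 52 cores found, 27 began within 60 bases before a start. The CCAAT box (CCAAT, bound by NF-Y) was in 58.8% of the members and 41.6% of tested genes, and the CHR element (TTTGAA, known from G2/M genes) in 7.84% and 16.1%. By window, CCAAT was in 50.7% of member windows against 34.6% of all, and TTTGAA in 5.63% against 15.2%. Both strands were searched, and a core that shares bases with a CCAAT box was counted for both. A match is only a string of letters.

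Members with and without a core were both mostly lower. With a core, 34 of 36 fell at 20 h with a median log2 change of -1.48, and 21 fell at 8 h with a median of -0.42. Without a core, 13 of 15 fell at 20 h with a median of -1.22, and at 8 h 7 fell and 1 rose with a median of -0.34. No test was made of this difference, and the ranges overlap: -2.42 to 0.26 with a core and -2.30 to 0.14 without at 20 h. MCM10 and TIMELESS fell by 2.30 and 1.98 at 20 h with no core in the window, and POLE3 and POLE4, which hold one, were not called.

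**Figure D2:**
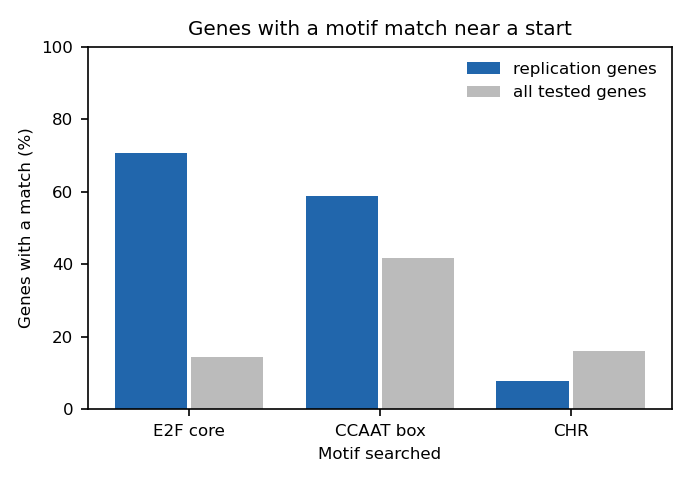
Share of genes (%, y axis) with at least 1 match to each motif in a window from 250 bases before to 50 after a start, for the replication genes with a window (51, blue) and all tested genes with a window (15336, grey). The E2F core is in 70.6% of the replication genes and 14.4% of tested genes.

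Origin recognition genes split by time. ORC1 to ORC6 encode the subunits of the complex that marks origins, and all 6 fell at 20 h, with a median log2 change of -1.20. At 8 h 3 of 6 fell, ORC1, ORC2 and ORC5. ORC1, the subunit known to be made afresh in each G1, averaged 5.03 ± 0.21 at 20 h, 6.14 ± 0.06 at 8 h and 6.83 ± 0.15 in controls (SD, n = 3 each). It fell by 1.79 at 20 h (SE 0.12, limma adjusted p = 2.19e-06) and by 0.69 at 8 h (limma adjusted p = 0.00407). ORC2, of the core complex, fell by 1.44 at 20 h and 0.71 at 8 h. ORC6, the subunit least alike the others in sequence, averaged 5.43 ± 0.16 at 20 h, 6.71 ± 0.11 at 8 h and 6.59 ± 0.08 in controls (SD, n = 3 each). Its change was -1.16 at 20 h (limma adjusted p = 1.47e-05) and 0.12 at 8 h, where the 95% interval ran from -0.11 to 0.35. ORC3 was like it, with a fall of 0.83 at 20 h and a difference of 0.10 at 8 h that did not pass.

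ORC4 had the smallest fall of the complex. It read 5.82, 5.82 and 5.58 on the 20 h arrays, 6.16, 6.15 and 6.37 on the 8 h arrays and 6.0, 6.04 and 6.04 in controls. All 20 h arrays were thus below and all 8 h arrays above the controls. Of all genes, 21.4% lay wholly below the controls at 20 h and 12.9% wholly above them at 8 h. The change was -0.29 at 20 h (limma adjusted p = 0.0447, SE 0.10), a call lost in 11 of 19 alternatives (adjusted p up to 0.22). At 8 h the difference was 0.20 (limma adjusted p = 0.253).

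Licensing genes fell as a whole at 20 h, by unequal amounts. All 9 were called lower and 6 fell at least 2-fold. The median was -1.13, and 4 of 9 fell at 8 h (MCM3, MCM4, CDC6 and GMNN). Among the 6 subunits of the MCM2-7 helicase, which act as 1 ring, changes at 20 h ran from -0.42 for MCM7 to -1.56 for MCM6. MCM7 averaged 8.03 ± 0.0074 at 20 h, 8.27 ± 0.0043 at 8 h and 8.45 ± 0.11 in controls, and MCM6 averaged 5.61 ± 0.18 at 20 h, 6.83 ± 0.08 at 8 h and 7.17 ± 0.06 in controls (SD, n = 3 each). At 8 h 2 of the 3 MCM7 values were identical. MCM3 fell by 1.26, MCM4 by 1.13, MCM5 by 1.02 and MCM2 by 0.58 at 20 h. The intervals of MCM6 and MCM7 lay apart, though subunits were not tested against each other. CDC6, the loader of the helicase, fell by 1.49 at 20 h and 0.65 at 8 h. GMNN encodes geminin, the inhibitor of CDT1, and fell by 1.40 at 20 h and 0.53 at 8 h. CDT1 itself fell by 0.52 at 20 h (SE 0.17, limma adjusted p = 0.0391), a call lost in 10 of 19 alternatives (adjusted p up to 0.132). Control replicate 3 read 6.67 for CDT1, against 6.03 and 5.99 in controls 1 and 2.

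Helicase activation genes held both the deepest fall between the times and the 1 member that rose. At 20 h 7 of 8 fell with a median of -1.51, and at 8 h 4 fell and 1 rose. MCM10, which helps start the active helicase, read 5.67, 5.59 and 5.43 on the 20 h arrays, 7.50, 7.42 and 7.64 on the 8 h arrays and 7.88, 7.87 and 7.82 in controls. The 8 h arrays sat just under the controls and the 20 h arrays far below both. It fell by 2.30 at 20 h (SE 0.09, limma adjusted p = 1.34e-07) and by 0.34 at 8 h (limma adjusted p = 0.0372), and the 8 h call was lost in 9 of 19 alternatives (adjusted p up to 0.133). GINS1, of the GINS complex that completes the helicase, read 4.91, 4.88 and 4.57 at 20 h, 6.01, 5.82 and 6.01 at 8 h and 6.85, 7.01 and 6.81 in controls. All 3 groups were apart, and it fell by 2.10 at 20 h (limma adjusted p = 5.46e-07) and 0.94 at 8 h (limma adjusted p = 0.000463). The other GINS subunits also fell at 20 h, GINS2 by 1.52, GINS4 by 1.51 and GINS3 by 0.66. GINS3 differed by -0.0087 at 8 h (95% interval -0.23 to 0.22). CDC45, another part of that helicase, fell by 1.30 at 20 h, and its difference of -0.30 at 8 h did not pass (limma adjusted p = 0.165).

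The kinase and its partner moved apart. CDC7, the kinase that phosphorylates MCM proteins at origins, averaged 5.39 ± 0.04 at 20 h, 6.48 ± 0.14 at 8 h and 7.42 ± 0.10 in controls (SD, n = 3 each), and fell by 2.03 at 20 h and 0.94 at 8 h (limma adjusted p = 2.86e-07 and 0.000164). DBF4, the subunit that activates it, read 7.42, 7.27 and 7.22 at 20 h, 7.54, 7.47 and 7.69 at 8 h and 7.29, 7.21 and 7.0 in controls. Every 8 h array was above every control array (12.9% of all genes showed this), while the 20 h arrays overlapped the controls. DBF4 rose by 0.40 at 8 h (SE 0.10, limma adjusted p = 0.0309), and this call ended in 7 of 19 alternatives, without control replicate 3 among them (0.32, adjusted p = 0.0727). Its difference at 20 h was 0.14 (95% interval -0.093 to 0.36).

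**Figure D3:**
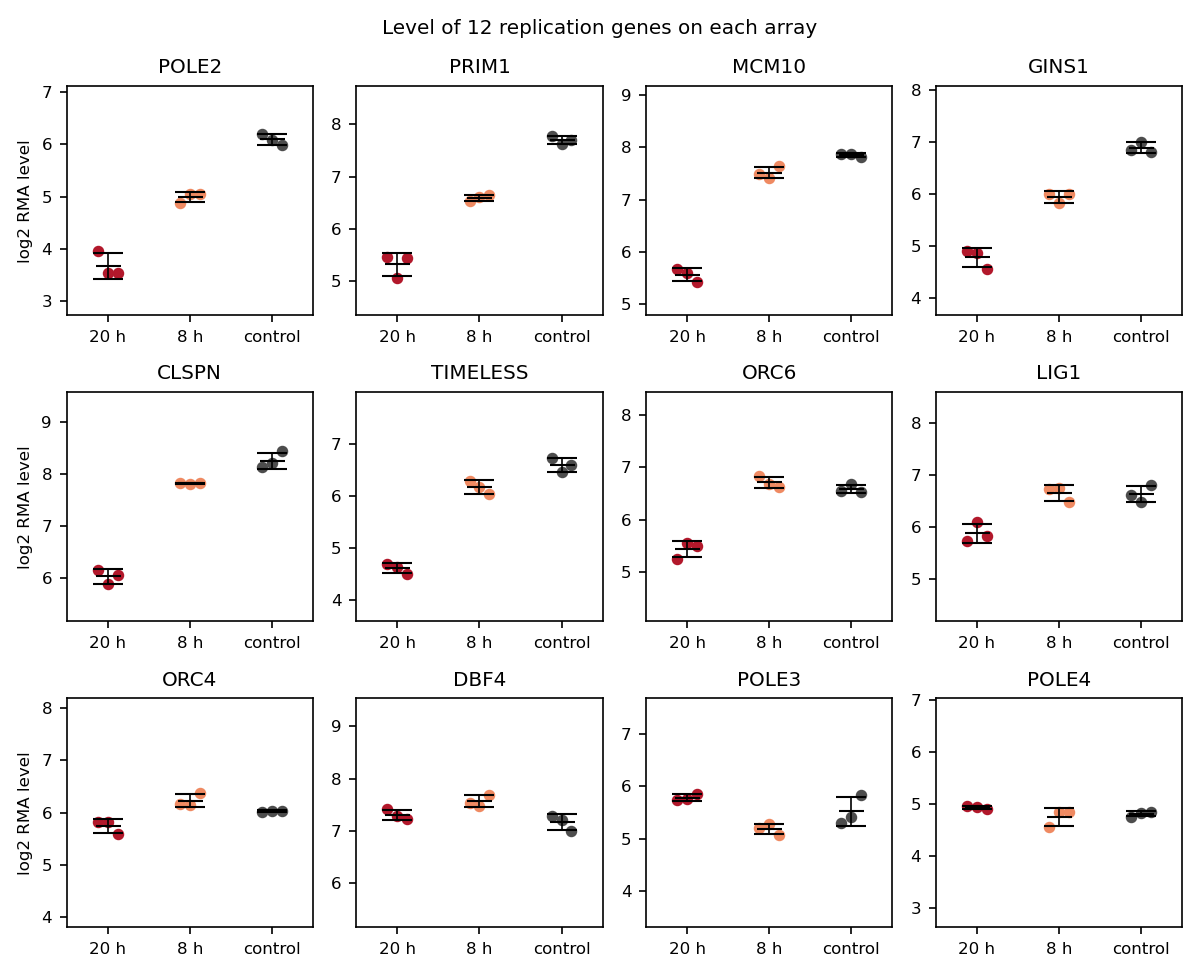
Log2 RMA level (y axis, each panel spanning the same range) of 12 replication genes on the 20 h, 8 h and control arrays; points are arrays, the middle bar is the mean and the outer bars 1 SD. POLE2, PRIM1 and GINS1 are lowest at 20 h and between the other groups at 8 h, MCM10, CLSPN and TIMELESS lie far lower at 20 h than in both other groups, and DBF4, POLE3 and POLE4 are not lower at 20 h.

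Polymerase and primase genes had the widest range of changes at 20 h of any role. Of 11, 8 fell at 20 h (5 at least 2-fold, median -0.94) and 5 at 8 h. All 4 subunits of the polymerase alpha and primase complex, which lays down RNA-DNA primers, fell at 20 h, with changes from -2.38 for PRIM1 to -1.22 for PRIM2. PRIM1, the catalytic primase, read 5.45, 5.06 and 5.45 at 20 h, 6.53, 6.60 and 6.65 at 8 h and 7.77, 7.62 and 7.70 in controls. The groups did not overlap, with changes of -2.38 at 20 h (SE 0.11, limma adjusted p = 3.22e-07) and -1.11 at 8 h (limma adjusted p = 0.000178). Its partner PRIM2 differed by -0.26 at 8 h and was not called (limma adjusted p = 0.0835). POLA1, the polymerase subunit, fell by 1.87 at 20 h and 0.36 at 8 h. POLA2, its regulatory partner, fell by 1.55 at 20 h and 0.60 at 8 h.

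The subunits of polymerase epsilon, the leading strand enzyme, went different ways. POLE2, its second subunit, read 3.96, 3.54 and 3.53 at 20 h, 4.88, 5.05 and 5.05 at 8 h and 6.20, 6.09 and 5.99 in controls, again with no overlap. It fell by 2.42 at 20 h (SE 0.12, limma adjusted p = 5.11e-07), the lowest change of any member, and by 1.10 at 8 h (limma adjusted p = 0.000379). Its 20 h mean of 3.67 lay under the median of all genes at 20 h, 3.90. The size of its fall at 20 h thus rests on a low signal. POLE, the catalytic subunit, fell by 0.94 at 20 h and differed by -0.099 at 8 h (95% interval -0.30 to 0.10). POLE3 and POLE4 encode small histone-fold subunits, of which POLE3 is also known from chromatin remodelling. POLE3 read 5.73, 5.76 and 5.86 at 20 h, 5.21, 5.28 and 5.08 at 8 h and 5.30, 5.42 and 5.84 in controls. Control replicate 3 lay with the 20 h arrays and the other controls nearer the 8 h arrays. Its change was 0.26 at 20 h (limma adjusted p = 0.166), and it was called higher in 3 of 19 alternatives: without control replicate 3 (0.42, adjusted p = 0.00659), with quantile normalization repeated and with array weights. POLE4 read 4.96, 4.94 and 4.90 at 20 h, 4.56, 4.85 and 4.85 at 8 h and 4.76, 4.83 and 4.85 in controls, a difference of 0.12 at 20 h (95% interval -0.089 to 0.33). Of polymerase delta, the lagging strand enzyme, POLD3 fell by 0.88 and POLD1, the catalytic subunit, by 0.72 at 20 h. POLD2 differed by -0.24 at 20 h (95% interval -0.55 to 0.058) and was not called.

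Clamp, loader, RPA and flap genes were lower at both times. All 11 fell at 20 h, with a median of -1.16, and 9 of 11 at 8 h, with a median of -0.41. The 5 RFC genes, which open the clamp and set it on DNA, all fell at both times, by 1.13 to 2.03 at 20 h and by 0.39 to 0.68 at 8 h, where the calls of RFC1, RFC2 and RFC5 were lost in 4, 9 and 11 of 19 alternatives. RFC3 moved furthest at 20 h, with 6.62 ± 0.14 at 20 h, 8.14 ± 0.0025 at 8 h and 8.65 ± 0.05 in controls (SD, n = 3 each, limma adjusted p = 1.84e-07 at 20 h). At 8 h 2 of the 3 RFC3 values were identical. RFC4 moved furthest at 8 h, where it fell by 0.68 (limma adjusted p = 0.00106). PCNA, the sliding clamp, fell by 0.97 at 20 h and 0.45 at 8 h. RPA1, the large subunit of the single-strand binder, fell by 1.47 at 20 h and 0.46 at 8 h, while the smaller subunits RPA2 and RPA3 fell by 0.70 and 0.58 at 20 h. FEN1, which trims Okazaki fragments, fell by 1.53 at 20 h and 0.54 at 8 h. LIG1, the ligase that seals them, fell by 0.75 at 20 h and differed by 0.021 at 8 h (95% interval -0.25 to 0.30).

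Nucleotide synthesis genes had a median of -1.72 over 5 genes at 20 h, beside -1.30 over all 57, a difference that was not tested. All 5 fell at 20 h and 3 at 8 h. TYMS, which makes thymidylate, averaged 7.42 ± 0.11 at 20 h, 8.90 ± 0.0061 at 8 h and 9.57 ± 0.15 in controls (SD, n = 3 each), and fell by 2.14 at 20 h (limma adjusted p = 2.51e-07) and 0.67 at 8 h. At 8 h 2 of the 3 TYMS values were identical. RRM1 and RRM2 encode the large and small subunits of ribonucleotide reductase, and fell by 1.72 and 1.95 at 20 h and by 0.30 and 0.50 at 8 h. RRM2 was listed at 7.47 on all 3 arrays of the 8 h group. TK1, the thymidine salvage kinase, fell by 1.33 at 20 h. DUT, which removes dUTP, averaged 3.43 ± 0.22 at 20 h, 3.49 ± 0.15 at 8 h and 3.85 ± 0.06 in controls (SD, n = 3 each). It fell by 0.42 at 20 h (limma adjusted p = 0.0214), a call lost in 3 of 19 alternatives. All 3 DUT means lay under the median of all genes, which was 3.90 at 20 h, 3.86 at 8 h and 3.88 in controls. The DUT fall thus rests on a low signal.

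Fork protection and chromatin genes had the lowest median of any role at 20 h, -1.85, with all 7 down at least 2-fold, and 4 of 7 fell at 8 h. CLSPN encodes claspin, the checkpoint adaptor that travels with the fork, and read 6.16, 5.88 and 6.07 at 20 h, 7.84, 7.81 and 7.82 at 8 h and 8.13, 8.20 and 8.43 in controls. It fell by 2.22 at 20 h (SE 0.10, limma adjusted p = 2.92e-07) and 0.44 at 8 h. TIMELESS, of the fork protection complex, read 4.70, 4.64 and 4.51 at 20 h, 6.29, 6.17 and 6.03 at 8 h and 6.72, 6.47 and 6.59 in controls. It fell by 1.98 at 20 h (limma adjusted p = 5.05e-07) and 0.43 at 8 h, and TIPIN, its binding partner, by 1.17 at 20 h. For both CLSPN and TIMELESS all 3 groups were apart, and most of the change lay between 8 h and 20 h. WDHD1, which ties the helicase to polymerase alpha, fell by 2.00 at 20 h and 0.72 at 8 h. UHRF1, which brings DNA methylation to new strands, fell by 1.61 at 20 h and 0.94 at 8 h (limma adjusted p = 0.00114 at 8 h). CHAF1A and CHAF1B, the histone chaperone subunits that build nucleosomes behind the fork, fell by 1.10 and 1.85 at 20 h, and neither was called at 8 h.

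**Figure D4:**
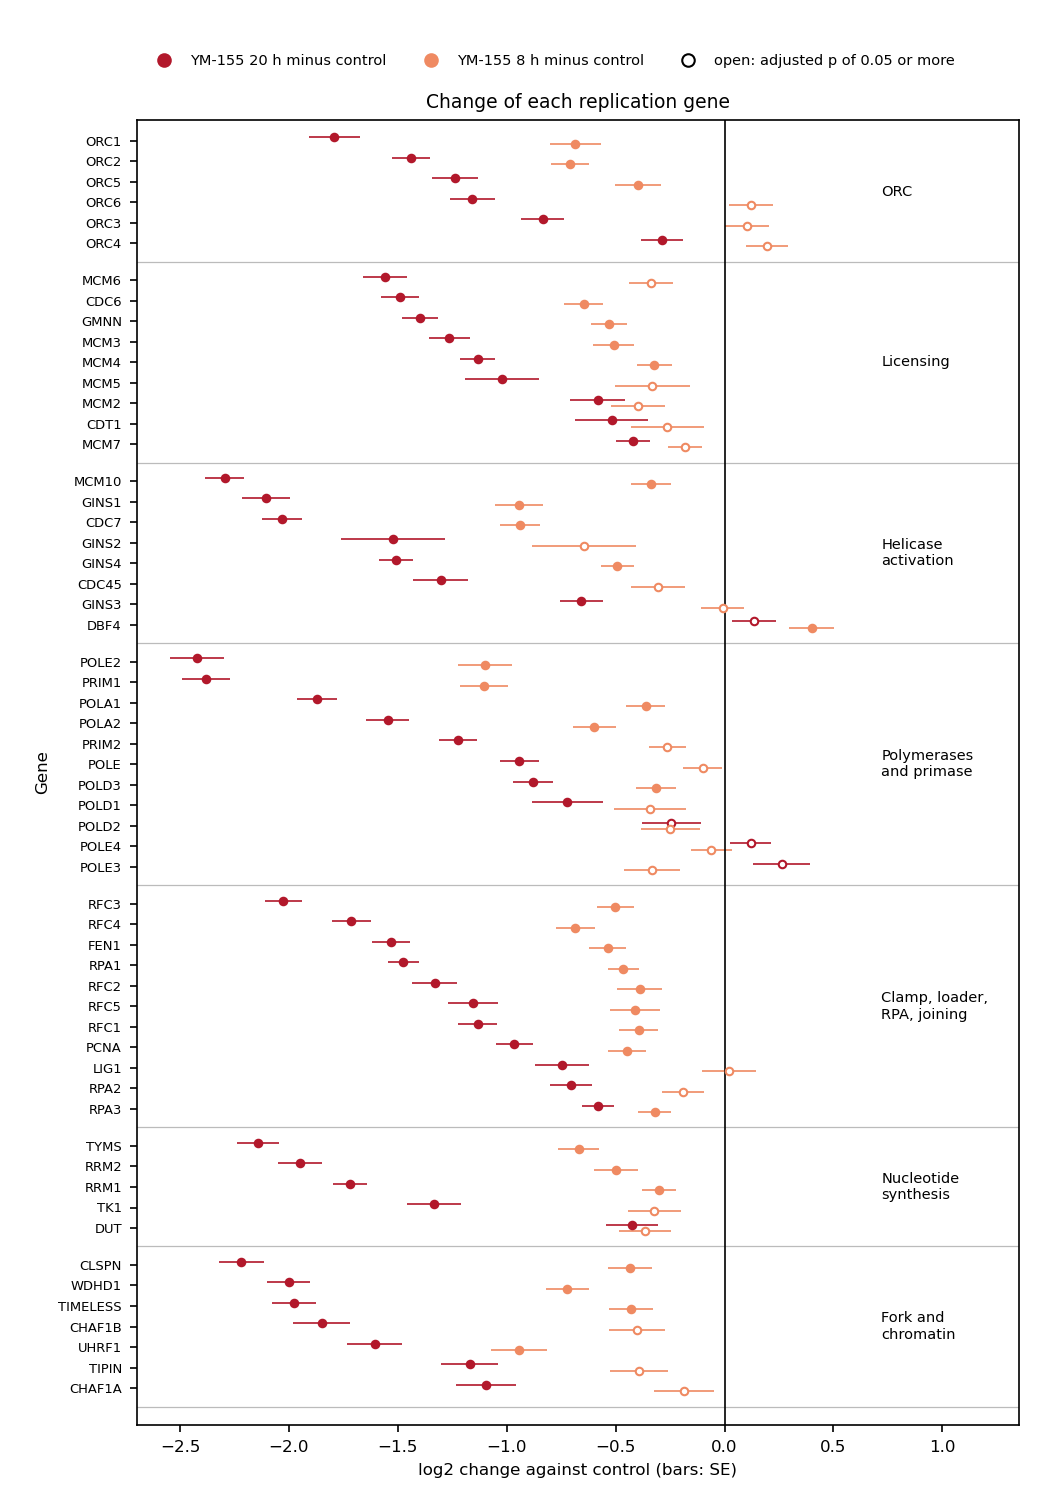
Log2 change against control (x axis, bars 1 SE) of each replication gene at 20 h (dark red) and 8 h (orange), grouped by role; filled points have a limma adjusted p under 0.05. The 20 h points run from -2.42 to 0.26 and the 8 h points from -1.11 to 0.40, and POLE3, POLE4 and DBF4 lie right of 0 at 20 h.

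Set directly against 8 h, 48 of 57 members were lower and 1 higher at 20 h by limma, where 13.6% of all genes were lower and 8.95% higher (22.6% in all), with a median difference of -0.88. This comparison joins a longer time to a lower dose. MCM10 differed most, by -1.96 (SE 0.09, limma adjusted p = 1.41e-06), then CLSPN by -1.78 (limma adjusted p = 3.74e-06) and TIMELESS by -1.55 (limma adjusted p = 7.73e-06). POLE3 was the 1 gene higher at 20 h, by 0.60 (SE 0.13, limma adjusted p = 0.00796), with every 20 h array above every 8 h array (17.8% of all genes showed this). POLE4 differed by 0.18 (limma adjusted p = 0.211), and its groups did not overlap either. The 8 members not called were MCM2, MCM7, CDT1, DBF4, POLD1, POLD2, POLE4 and DUT. Of these, MCM7 differed by -0.24 (95% interval -0.41 to -0.064, limma adjusted p = 0.0537). POLD2 differed by 0.0045 and DUT by -0.059 (95% interval -0.33 to 0.21).

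**Figure D5:**
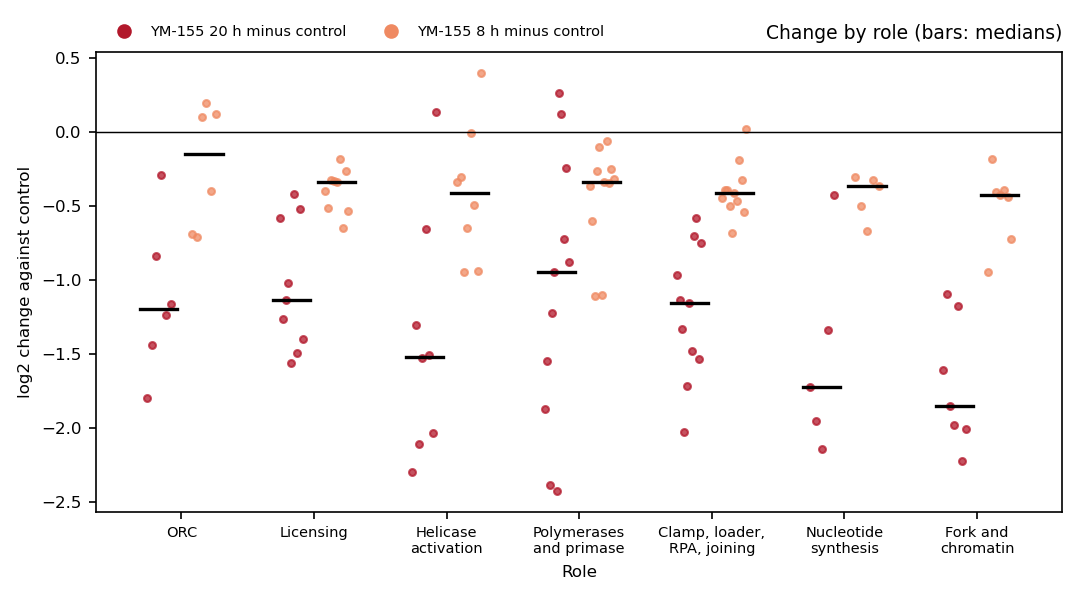
Log2 change against control (y axis) of each replication gene, as points by role, at 20 h (dark red, left of each pair) and 8 h (orange, right); black bars are medians. The 20 h medians run from -1.85 (fork and chromatin) to -0.94 (polymerases and primase), below the 8 h medians, which run from -0.43 to -0.15.

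Of 42 further genes of replication and nucleotide supply, 33 fell and 2 rose at 20 h by limma. Over all genes tested, 17.2% were called lower and 13.1% higher at 20 h. At 8 h 19 of the 42 fell and 0 rose, where 6.28% of all genes were called lower and 5.93% higher. At an unadjusted limma p under 0.05, 25 of the 42 were lower and 4 higher at 8 h. Over all 22109 genes, 2799 were lower and 2472 higher at 8 h by that measure. The medians of the 42 were -1.01 at 20 h and -0.32 at 8 h. DSCC1, of the alternative clamp loader that aids cohesion, averaged 3.80 ± 0.16 at 20 h, 5.99 ± 0.15 at 8 h and 6.89 ± 0.05 in controls (SD, n = 3 each). Its 20 h mean lay under the median of all genes at 20 h, 3.90, a low signal. CCNA2, the S phase cyclin A, fell by 2.47 at 20 h, and DNA2, a flap nuclease, by 2.12. SAMHD1, which breaks down deoxynucleotides, fell by 2.05 at 20 h. At 8 h DSCC1 and SAMHD1 fell by 0.90 each, DNA2 by 0.78 and the repriming enzyme PRIMPOL by 0.78. POLD4, the smallest polymerase delta subunit, rose at 20 h by 1.06 (SE 0.13, limma adjusted p = 0.000109), with 5.30 ± 0.06 at 20 h, 4.61 ± 0.16 at 8 h and 4.23 ± 0.24 in controls (SD, n = 3 each). TOP1, the topoisomerase that relaxes DNA ahead of the fork, rose by 0.41 (limma adjusted p = 0.0116).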

How the data were processed

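Total RNA from 9 samples was measured on Affymetrix whole-transcript arrays. The deposited values are log2 summaries, made by the authors with RMA in Affymetrix Expression Console, per the submitters' processing notes; versions and build are not given in the sources used here. Array medians were 3.11 to 3.20. Precision is limited by the number of arrays.

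Of 53617 probe sets, 23558 had 1 symbol in the platform annotation; 2155 with several and those not listed were left out. The brightest of a gene's probe sets (mean of 9 arrays) was kept, for 22109 genes. The 3 group means were compared with limma 3.58.1 under R 4.3.3 (lmFit, eBayes, 6 residual and 4.01 prior degrees of freedom), with two-sided tests and Benjamini-Hochberg adjustment across the 22109 genes. The method was tested on simulated data with independent normal noise, which held no tied values, outlying array or technical replicates.

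The members, roles, list of 42 further genes (47 listed), motifs, tests and alternatives were chosen with earlier results of these data known. Every member could be named; per-array values are given for the 3 lowest and 2 highest changes of each comparison and members called higher. Of the further genes, the 4 largest falls and all rises were named. RRM2 and CDT1 values were added after they were seen. The 19 alternatives were a filter at the median level, other handling of probe sets, repeated normalization or centring, 2-group fits, array weights, another variance model, the replicate number as a block, leaving out each array, and 8 h replicates 1 and 2 as 1 sample. Tables used Python 3.11.15, pandas 2.3.3 and matplotlib 3.10.9.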

Additional observations from a re-analysis of the deposited data

Results flagged for a closer look

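For 5 members the 8 h and 20 h changes against the shared controls had opposite signs and the 20 h against 8 h difference itself passed in limma (6 residual degrees of freedom over 9 arrays). None of the 5 was called against control at 8 h, and POLE3 was not called at 20 h either. The 8 h change of LIG1, 0.021, turned its sign in 4 of 19 alternatives, and that of ORC3, 0.10, in 1. The rule was not applied to all genes, so no share can be set beside the 5. ORC6 differed by -1.28 between 20 h and 8 h (limma adjusted p = 2.49e-05), ORC3 by -0.939 (limma adjusted p = 0.00013), LIG1 by -0.768 (limma adjusted p = 0.00152) and ORC4 by -0.482 (limma adjusted p = 0.00486). POLE3 differed the other way, by 0.597 (limma adjusted p = 0.00796). Dose and time cannot be told apart in these differences.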

How the results depend on the processing

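Over 19 alternatives, the count of members called against control was 50 to 53 at 20 h and 21 to 38 at 8 h, and 46 to 50 for 20 h against 8 h. Leaving out 1 array at a time gave 50 to 52 at 20 h, 21 to 34 at 8 h and 46 to 50 for 20 h against 8 h. The 8 h count fell below its main value of 33 by more than 1.5 times without 8 h replicate 2 (21) and with 8 h replicates 1 and 2 counted as 1 sample (21). Of the called members, 50 of 53 at 20 h, 20 of 33 at 8 h and 46 of 49 between 20 h and 8 h were called under every alternative. The member median stayed between -1.37 and -1.25 at 20 h and between -0.42 and -0.34 at 8 h, and the further genes gave 33 to 37 calls at 20 h and 13 to 23 at 8 h. With the replicate number as a block, 52 members were called at 20 h, 28 at 8 h and 48 between the times. Same-numbered arrays had deviation correlations of -0.188 to 0.058 over all genes. The deviations were from means of 3 arrays, so these values cannot settle whether the numbers pair the samples. Called changes kept their sign under all 19. Some small uncalled differences turned theirs. At 8 h these were GINS3 with repeated normalization (0.022), array weights (0.0076), without control replicate 3 (0.033) or 8 h replicate 1 (0.0060), over a leave-one-out range of -0.045 to 0.033, and with 8 h replicates 1 and 2 as 1 (0.00073); LIG1 with the last (-0.022), without control replicate 2 (-0.054), 8 h replicate 1 (-0.018) or 2 (-0.026), range -0.054 to 0.11. Others were ORC3 without 8 h replicate 3 (-0.0098, range up to 0.17) and POLE4 without 8 h replicate 1 (0.038, range down to -0.11). Between 20 h and 8 h they were POLD2 with centred arrays (-0.031), array weights (-0.032), without 8 h replicate 3 (-0.066) or 20 h replicate 1 (-0.017), range -0.066 to 0.048, and DUT without 8 h replicate 1 (0.0082) or 20 h replicate 3 (0.063, range down to -0.16). The cause was not tested.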

Other observations

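RRM2 was listed with 1 identical value on all 3 arrays of the 8 h group, as were 362 of the 22109 genes tested. Genes with 1 identical value on all arrays of a group numbered 204 at 20 h and 281 in controls. At least 2 of the 3 arrays shared a value for 0 members at 20 h, 14 at 8 h and 1 in controls. MCM7, RFC3 and TYMS were among the 14, so their small SDs at 8 h rest on 2 identical values of 3. The same count was not made over all genes, so the 14 cannot be set against a share. The median SD between replicates over the 57 genes was 0.13 at 20 h, 0.072 at 8 h and 0.10 in controls. The share of these ties in the 8 h calls was not tested.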
